A study of Homo sapiens with 6 samples.

Results

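The ubiquitin-specific proteases (USPs) are the largest family of human deubiquitinases, the enzymes that take ubiquitin off other proteins. Most are cysteine proteases. They shorten or remove the ubiquitin chains that ubiquitin ligases build, and so set whether a protein goes to the proteasome, how a receptor is sorted and which chromatin marks stay in place. The members described here were the protein-coding genes of the deposited table whose symbol is USP followed by a number, with an X or L allowed at the end. This name rule found 49 genes of 58825 in the table. Of the 49, 44 had enough counts to be tested, among 18229 genes tested in all. The table's own annotation assigned the enzyme number for ubiquitin hydrolases to 41 of the 49 and the term for ubiquitin-specific protease activity to 45. The genes lay on 19 chromosomes, with at most 5 on any of them (chromosomes 1, 17 and X).

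RNA had been sequenced from MDA-MB-231, an established human line of triple-negative, mesenchymal-like breast cancer cells. Cells were kept for 24 h in disulfiram with copper (DSF/Cu, 0.2 µM) or in the solvent DMSO, with 3 libraries in each group and 3 culture wells pooled into each library. Disulfiram is given in alcohol dependence, and the dithiocarbamate made from it in the body forms a complex with copper. The labels do not state that the libraries are separate cultures, and the p-values therefore reflect only library-to-library spread, which could be technical.

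Library totals ranged from 55563223 to 61633168 in DSF/Cu and from 62165212 to 70883177 in DMSO. CPM here is a gene's count scaled to the size of its library after TMM (a correction for library composition), and it serves to compare 1 gene between libraries. The 4 markers of the line (VIM, CD44, AXL and CAV1) were present, at means of 160 to 2734 CPM in DSF/Cu and 294 to 3297 CPM in DMSO. Of 7 genes known to be low in it, CDH1 had at most 4 counts, and ESR1, PGR, FOXA1 and GATA3 had means of 0.277 to 3.44 CPM in DSF/Cu and 0.105 to 2.82 CPM in DMSO. EPCAM averaged 4.49 ± 0.720 CPM in DSF/Cu and 7.30 ± 1.45 CPM in DMSO, and ERBB2 39.7 ± 3.33 CPM in DSF/Cu and 69.5 ± 4.69 CPM in DMSO (SD, n = 3 each). Of 7 markers of other cells, CD3E, ADIPOQ and DCN had 0 counts in every library, while PTPRC, VWF and PECAM1 had at most 12, 19 and 56. CD68, a lysosomal protein used as a macrophage marker, averaged 142 ± 26.6 CPM in DSF/Cu and 149 ± 47.6 CPM in DMSO. In bulk RNA of this kind, fewer cells expressing a gene and less RNA per cell cannot be told apart.

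The USP genes changed in both directions in DSF/Cu. At a Benjamini-Hochberg adjusted p under 0.05 over all genes (edgeR's quasi-likelihood test), 15 of the 44 tested members rose, 10 fell and 19 did not pass. The raised share was 34.1%, beside 18.5% of all genes tested, and the lowered share was 22.7%, beside 16.8% of all genes tested. USP6 met the count minimum in all 3 DSF/Cu libraries but in 1 DMSO library, and without it 14 of 43 members (32.6%) rose. Among the 13421 protein-coding genes tested, 20.8% were raised and 21.1% lowered. The 3 DSF/Cu libraries lay entirely above or below the 3 DMSO libraries for 29 of the 44 members, or 65.9%, against 51.2% of all genes. The split between rises and falls depended on scaling: with libraries scaled by total count alone, 10 members rose and 14 fell.

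Most changes were small. The median log2 fold change of the tested members was 0.11 with TMM scaling, against 0.00 for all genes tested, and −0.07 against −0.18 with total-count scaling. The family stood 0.11 above the median of all genes under both. Scaling shifts all genes by nearly the same amount, so this agreement is no independent check. The raised members spanned 0.26 to 2.38 on the log2 scale with a median of 0.48, and reached 1.93 without USP6. The lowered members spanned −0.67 to −0.20 with a median of −0.37. USP6, USP30 and USP2 were raised by 2-fold or more, which is 6.82% of the tested members, against 7.42% of all genes, and no member was lowered by as much, against 1.87% of all genes. By at least 1.5-fold, 6 of the 44 members were raised and 1 was lowered, against 2178 and 1458 of the 18229 genes. The 2-fold and 1.5-fold rises include USP6, which met the count minimum in only 1 DMSO library.

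**Figure D1:**
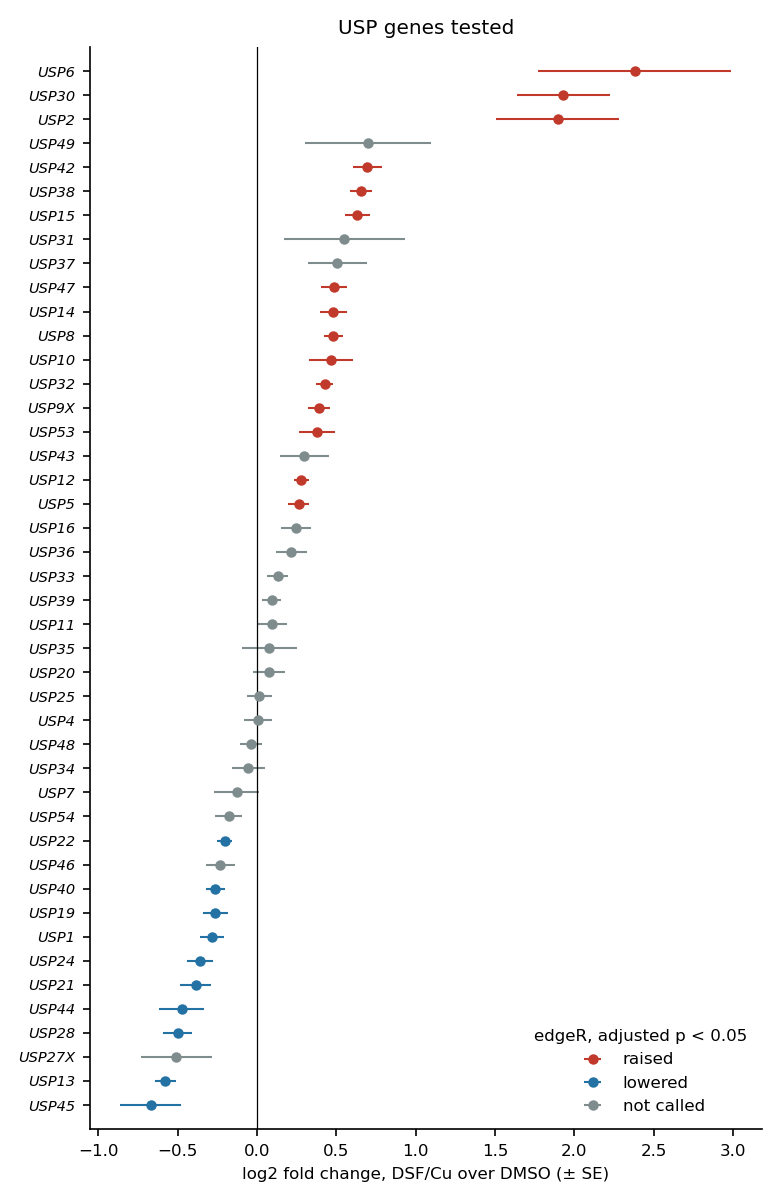
Log2 fold change (DSF/Cu over DMSO, x axis) of the 44 tested USP genes, one per line, with standard errors as bars and the edgeR call as colour. USP6, USP30 and USP2 stand apart on the right at 1.90 to 2.38, and the lowered genes reach −0.67 (USP45).

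Levels were compared between genes per transcript length, as deposited FPKM (fragments scaled by gene length and library size). A mean of at least 1 FPKM was reached by 39 members in DSF/Cu and 41 in DMSO, and a mean of at least 5 by 19 and 23 of them. The same 6 genes led in both groups. In DSF/Cu they were USP5 at 32.5 ± 1.63, USP22 at 31.6 ± 1.65, USP39 at 27.4 ± 1.35, USP1 at 23.5 ± 2.32, USP14 at 20.5 ± 1.76 and USP12 at 18.3 ± 0.636 FPKM (SD, n = 3). In DMSO USP22 stood clear at 41.0 ± 0.0556 FPKM, followed by USP1 at 32.2 ± 1.18, USP5 at 30.5 ± 1.21, USP39 at 28.8 ± 1.08, USP12 at 16.9 ± 0.0573 and USP14 at 16.5 ± 0.905. USP5 and USP22 in DSF/Cu differed by less than their spread, as did USP12 and USP14 in DMSO. In the order by mean FPKM, USP30 moved furthest, standing at place 26 of the 49 members in DSF/Cu and at place 41 in DMSO.

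Across the 44 members, the log2 fold change and the DMSO FPKM level had a Spearman's rho of −0.34, and for the fold change and the length of the gene on the chromosome rho was 0.15. These are descriptions across genes that share the same 6 libraries. The level in DMSO enters both sides of the first. The median DMSO level was 3.15 FPKM for the raised members, 8.01 for the lowered and 3.47 for those without a call. The summed USP signal had no direction that held across scales: it was 2796 ± 48.2 CPM in DSF/Cu and 2601 ± 23.1 CPM in DMSO, but 331 ± 7.31 FPKM in DSF/Cu and 352 ± 1.95 FPKM in DMSO (SD, n = 3 each). USP22 alone made up 9.58 ± 0.468% of the summed CPM in DSF/Cu and 11.9 ± 0.120% in DMSO.

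In the mitochondrial, endoplasmic reticulum (ER) and peroxisomal group, 2 of 4 genes rose and 1 fell. The shares over all genes tested, 18.5% raised and 16.8% lowered, stand beside this count and that of every later role group. The role groups are too small for a share of their own to be read. USP30 sits in the outer mitochondrial membrane, where it removes the ubiquitin that PINK1 and Parkin use to mark mitochondria for mitophagy, and it is also found on peroxisomes. The gene is annotated at chr12:109023089-109088023 on the plus strand (GRCh38). It measured 33.5, 19.9 and 15.1 CPM in the DSF/Cu libraries, against 6.44, 5.50 and 6.01 CPM in the DMSO libraries. All DSF/Cu libraries were above all DMSO libraries, and the first DSF/Cu library was the highest by a wide margin. The log2 fold change was 1.93 ± 0.30 (SE; adjusted p = 0.00336), and without that library it was 1.55 (adjusted p = 0.00301). Of the exon bases of USP30, 4.54% are shared in GENCODE 29 with an antisense gene, USP30-AS1, which had a mean of 0 CPM in both groups.

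USP38 and its paralog USP35 were placed beside USP30 because USP35 has been described at mitochondria. USP38, annotated at chr4:143184917-143223830 on the plus strand, measured 45.5, 42.4 and 40.7 CPM in DSF/Cu and 27.0, 26.9 and 27.7 CPM in DMSO, with no overlap and a narrow spread in DMSO. Its log2 fold change was 0.66 ± 0.07 (adjusted p = 0.000909). USP35 did not pass, at 0.08 (adjusted p = 0.769), and turned to −0.11 with total-count scaling. USP19, which has an isoform anchored in the ER membrane, measured 74.3, 74.0 and 78.6 CPM in DSF/Cu and 94.0, 96.6 and 81.6 CPM in DMSO. It fell by 0.26 on the log2 scale (adjusted p = 0.0408), yet the call was lost in 7 of 13 alternatives, among them leaving out any library except DMSO library 3 (adjusted p up to 0.12, without DMSO library 2).

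The 250 bases before the RefSeq start of USP30, USP38 and USP28 are printed as examples of rises and of a fall that held in every alternative and whose RefSeq start lies within 2 bases of the deposited gene boundary. USP13 and USP40 fell and meet the same conditions but are not printed: the window of USP13 holds both of the motifs marked here, and that of USP40 neither. They are from GRCh38.p14, 5′ to 3′ on the strand of the gene: chr12:109022839-109023088 (plus), chr4:143184667-143184916 (plus) and chr11:113875573-113875822 (minus). Capitals mark matches to an antioxidant response element (TGACNNNGC) or a CCAAT box (CCAAT), on either strand.
USP30: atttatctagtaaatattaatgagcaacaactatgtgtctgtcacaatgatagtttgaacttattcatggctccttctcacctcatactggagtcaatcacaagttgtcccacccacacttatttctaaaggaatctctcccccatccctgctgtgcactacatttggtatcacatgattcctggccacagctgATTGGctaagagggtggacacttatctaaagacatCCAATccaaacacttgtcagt
USP38: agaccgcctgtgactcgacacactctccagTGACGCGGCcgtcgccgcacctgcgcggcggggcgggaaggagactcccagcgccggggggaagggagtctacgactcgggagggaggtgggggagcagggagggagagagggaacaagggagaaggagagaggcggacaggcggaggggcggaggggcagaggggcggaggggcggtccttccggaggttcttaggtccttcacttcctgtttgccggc
USP28: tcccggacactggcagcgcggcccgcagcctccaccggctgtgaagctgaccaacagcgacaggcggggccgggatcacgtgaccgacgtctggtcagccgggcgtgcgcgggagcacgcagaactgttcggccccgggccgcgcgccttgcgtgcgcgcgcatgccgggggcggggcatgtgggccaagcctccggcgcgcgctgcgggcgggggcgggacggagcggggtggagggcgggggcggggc
The USP30 window holds 2 CCAAT boxes and no CpG dinucleotide in the 300 bases from 250 before to 50 after the start, with a GC content of 43.0%. The same windows of USP38 and USP28 hold 26 and 44 CpG dinucleotides and have a GC content of 67.3% and 78.0%. The USP38 window holds 1 match to the antioxidant response element, and the USP28 window none to either motif.

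Promoter windows of this length were matched for 38 of the 49 members in the RefSeq table, and 13 of these belong to raised and 8 to lowered genes. Their median GC content was 69.8%, against 58.7% for all 35116 promoters. The antioxidant response element, a motif bound by NRF2, was present in the windows of USP2, USP38 and USP14 among the raised members and of USP13 among the lowered ones. That is 4 of 38 members, or 10.5%, against 13.3% of all promoters. The RefSeq start lies 17503 bases from the deposited gene start for USP2, 174 for USP14 and 0 for USP38 and USP13. Some other windows also lie far off, such as that of USP54, at 34308 bases. A CCAAT box was present in 26.3% of the members, against 34.6% of all promoters. The heat shock element cores GAANNTTC and TTCNNGAA, found in 6.77% and 7.74% of all promoters, occurred in none of the 13 windows of raised members, and USP16 alone among the 38 held the second. The GC box (GGGCGG) was present in 11 of 13 raised, 8 of 8 lowered and 11 of 15 uncalled members with a window, against 45.0% of all promoters. The metal response element core (TGCNCNC) was present in 9 of 13 raised, 7 of 8 lowered and 9 of 15 uncalled members. That is 65.8% of the 38 members, against 55.9% of all promoters. It is not marked in the printed windows, of which those of USP38 and USP28 hold it. These are matches of letters, and the absence of a match concerns only this window.

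The group tied to the ubiquitin ligase MDM2, stress granules and the stress response had 3 rises and 1 fall among 5 tested genes, with a median log2 fold change of 0.47 (2 rises and 1 fall with total-count scaling). USP2 is known to stabilise MDM2 and cyclin D1. It was scarce, at 2.16, 2.32 and 1.23 CPM in DSF/Cu and 0.630, 0.582 and 0.318 CPM in DMSO, from raw counts of 122, 134 and 65 against 48, 39 and 21. The groups did not overlap, and the log2 fold change was 1.90 ± 0.39 (adjusted p = 0.0105). USP42, a deubiquitinase of the nucleus, measured 31.6, 27.5 and 29.6 CPM in DSF/Cu and 19.4, 18.2 and 17.1 CPM in DMSO. It rose in every DSF/Cu library relative to every DMSO library, by 0.70 ± 0.09 (adjusted p = 0.00184).

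USP10 is a cytoplasmic deubiquitinase that binds the stress granule protein G3BP1. It measured 95.0, 83.8 and 108 CPM in DSF/Cu, against 59.6, 81.0 and 66.9 CPM in DMSO, so the lowest DSF/Cu library lay just above the highest DMSO library. Its rise of 0.47 ± 0.14 passed narrowly (adjusted p = 0.0406). It was lost in 9 of 13 alternatives, with adjusted p up to 0.155, including each fit without DSF/Cu library 1 or 3 or without DMSO library 1 or 3. USP24, a deubiquitinase of the repair protein DDB2, measured 54.9, 55.8 and 59.9 CPM in DSF/Cu and 78.2, 74.8 and 65.9 CPM in DMSO. It fell by 0.36 on the log2 scale (adjusted p = 0.0158). The call was lost without DSF/Cu library 2 (0.0521), without DMSO library 2 (0.0534) and with the replicate block (0.0564), all adjusted p.

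USP7, the best known deubiquitinase of MDM2, did not pass. It measured 142, 137 and 103 CPM in DSF/Cu and 144, 122 and 151 CPM in DMSO, with overlapping groups and the lowest value in DSF/Cu library 3. The log2 fold change was −0.13 ± 0.14 (adjusted p = 0.543) and changed to 0.01 without that library. USP29, the other gene of this group, had 0 counts in all 6 libraries.

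In the group of endosomes, surface receptors and membrane traffic, 4 of 6 genes rose and none fell, with a median of 0.41. Over all genes tested, 18.5% rose and 16.8% fell. With total-count scaling 3 of 6 rose and none fell. Without USP6 the count with TMM scaling was 3 of 5 and the median 0.39. At an unadjusted p under 0.05 in edgeR and with DESeq2, 0 of the 6 were lower as well, and with limma on log2(FPKM + 1) 0 of the 5 it covered. USP8 binds the sorting adaptors STAM and STAM2 and helps to set whether receptors such as EGFR are degraded or recycled. It measured 48.4, 51.3 and 49.5 CPM in DSF/Cu and 35.8, 35.4 and 35.5 CPM in DMSO, with each group spanning a few CPM. The rise was 0.48 ± 0.06 (adjusted p = 0.00149), and 2.64% of its exon bases are shared with USP50 on the opposite strand, which had no counts.

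USP9X protects the survival factor MCL1 from degradation and acts on several trafficking proteins. It measured 139, 151 and 159 CPM in DSF/Cu and 119, 113 and 109.7 CPM in DMSO, again without overlap. Its rise of 0.39 ± 0.07 (adjusted p = 0.00542) was lost with total-count scaling (adjusted p = 0.078) and in both fits to FPKM (adjusted p up to 0.066). USP32, a membrane-bound USP linked to the late endosomal GTPase RAB7, rose by 0.43 ± 0.05 (adjusted p = 0.0014). USP33 and its paralog USP20, which deubiquitinate beta-2 adrenergic receptors, did not pass at 0.13 and 0.08, and both turned negative with total-count scaling.

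USP6 rests on few reads. It is a hominoid gene, formed from parts of USP32 and TBC1D3, and an oncogene of aneurysmal bone cysts. Raw counts were 26, 59 and 20 in DSF/Cu and 13, 7 and 5 in DMSO, which is a mean of 0.0438 ± 0.0250 FPKM in DSF/Cu and 0.00889 ± 0.00417 FPKM in DMSO. DSF/Cu library 2 was the highest, and no library of one group reached into the other. The log2 fold change was 2.38 ± 0.61, and 1.83 without DSF/Cu library 2. Because USP6 entered the fit through the DSF/Cu group, where it is high, no p is given for it. USP32, of which part of it is a near copy, averaged 119.9 ± 3.56 CPM in DSF/Cu and 89.2 ± 1.93 CPM in DMSO, and reads could be split between the pair by the counting, so the value is uncertain.

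**Figure D2:**
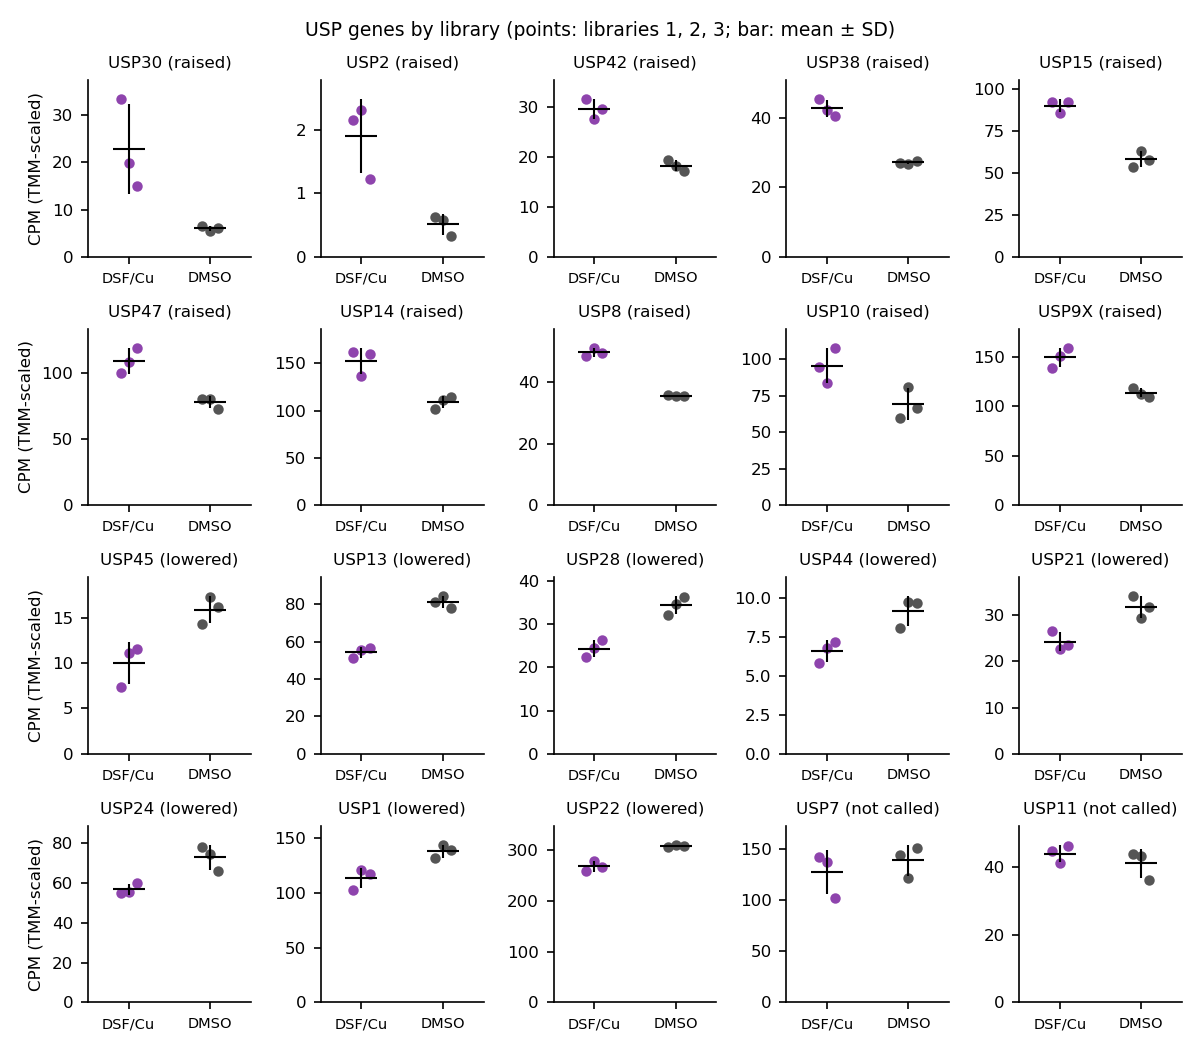
TMM-scaled CPM (y axis, from 0) of 20 USP genes in the DSF/Cu and DMSO libraries: points are the 3 libraries of a group, the horizontal bar is the mean and the vertical bar the SD. DSF/Cu lies above DMSO in the upper pair of rows and below it from USP45 to USP22, and the groups overlap for USP7 and USP11.

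At the proteasome and among the enzymes of free ubiquitin chains, 2 genes rose and 1 fell. USP14 binds the regulatory particle of the proteasome through PSMD2 and trims chains from arriving substrates. It measured 162, 137 and 159.5 CPM in DSF/Cu and 102, 111 and 115 CPM in DMSO, with every DSF/Cu library above every DMSO library. The log2 fold change was 0.48 ± 0.08 (adjusted p = 0.00573), and it passed in all 13 alternatives. The gene shares 1.84% of its exon bases with THOC1 on the opposite strand, which averaged 35.6 CPM in DSF/Cu and 33.9 CPM in DMSO.

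USP5, also called isopeptidase T, takes apart unanchored ubiquitin chains, and USP13 is its paralog. USP5 rose by 0.26 ± 0.07 (adjusted p = 0.0224), a call lost with total-count scaling (adjusted p = 0.374) and without DSF/Cu library 1 or 2 or DMSO library 2 or 3 (adjusted p up to 0.0791). USP13 measured 51.2, 55.4 and 56.6 CPM in DSF/Cu and 81.2, 84.4 and 78.1 CPM in DMSO, without overlap. It fell by 0.58 on the log2 scale (SE 0.07, adjusted p = 0.00106) and passed in all 13 alternatives.

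In the group of histones, SAGA and chromatin, none of the 6 tested genes was raised and 3 were lowered, with a median of −0.30. Over all genes tested, 18.5% were raised and 16.8% lowered. Each member was placed in only 1 group, so these counts do not cover every USP that acts on histones. At an unadjusted p under 0.05, and with DESeq2, 1 was raised, USP16, and with limma on log2(FPKM + 1) 0 were. USP22 is the catalytic subunit of the deubiquitinase module of SAGA, a transcription coactivator that removes ubiquitin from histone H2B. It measured 258, 279 and 266 CPM in DSF/Cu and 307, 310.0 and 308 CPM in DMSO, with the DMSO libraries within a few CPM of each other. It fell by 0.20 (SE 0.05, log2; adjusted p = 0.0167), and the call was narrowly lost without DSF/Cu library 3 (0.0522) or DMSO library 2 (0.0545).

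USP21, a deubiquitinase of histone H2A, measured 26.5, 22.6 and 23.6 CPM in DSF/Cu and 34.1, 29.3 and 31.7 CPM in DMSO. It fell by 0.39 (SE 0.10, log2; adjusted p = 0.0226), and the groups did not overlap. Leaving out DSF/Cu library 2 or 3 or DMSO library 1 or 3 ended the call (adjusted p up to 0.0743). USP44, which removes ubiquitin from H2B and acts in the spindle checkpoint, was low at 5.81, 6.82 and 7.15 CPM in DSF/Cu and 8.05, 9.77 and 9.66 CPM in DMSO. It fell by 0.47 (SE 0.14, log2; adjusted p = 0.0424), and the call ended without any one library except DMSO library 1 (adjusted p up to 0.122).

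USP27X, which can take the place of USP22 on the SAGA subunits, did not pass at −0.51 (adjusted p = 0.127), and passed with total-count scaling (adjusted p = 0.0459). USP16, a deubiquitinase of H2A in mitosis, did not pass at 0.25 (adjusted p = 0.0955). USP49, a deubiquitinase of H2B linked to splicing, measured 24.6, 34.1 and 46.1 CPM in DSF/Cu and 27.0, 27.1 and 10.3 CPM in DMSO. The groups overlapped, and DMSO library 3 was far below the other two. The log2 fold change of 0.70 ± 0.40 did not pass (adjusted p = 0.227), and without that library it was 0.36 (adjusted p = 0.356). USP51, the remaining gene of this group, was not tested and had at most 12 counts in any library.

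Of the 4 genes in the DNA damage and replication group, 3 fell and none rose, with a median of −0.39. Among all genes tested, 16.8% fell and 18.5% rose. USP24 (lowered) and USP11 (no call), which also have roles in repair, were placed in other groups. At an unadjusted p under 0.05, and with DESeq2, 1 was raised, USP37, and with limma 0 were. USP1 works with its cofactor UAF1 (the product of WDR48) to deubiquitinate FANCD2 and PCNA. It measured 103, 121 and 117 CPM in DSF/Cu and 132, 144 and 139 CPM in DMSO, without overlap. The fall was 0.28 (SE 0.08, log2; adjusted p = 0.029), and the call ended without DSF/Cu library 1 or 3 or DMSO library 2 or 3 (adjusted p up to 0.0884). USP28, which binds 53BP1 and stabilises MYC, measured 22.3, 24.5 and 26.2 CPM in DSF/Cu and 32.2, 34.7 and 36.3 CPM in DMSO. All DSF/Cu libraries were lower, by 0.50 (SE 0.09, log2; adjusted p = 0.00681), and the call held in all 13 alternatives.

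USP45, a deubiquitinase of the repair nuclease subunit ERCC1, was low. It measured 7.32, 11.2 and 11.5 CPM in DSF/Cu and 14.3, 17.3 and 16.2 CPM in DMSO, with DSF/Cu library 1 the lowest. The fall was 0.67 (SE 0.19, log2; adjusted p = 0.0358). It did not pass without DSF/Cu library 2 or without any one DMSO library (adjusted p up to 0.104). USP37, which deubiquitinates cyclin A, did not pass at 0.51 (adjusted p = 0.0796). It passed without DSF/Cu library 2, the lowest of its group (log2 0.70, adjusted p = 0.00577), and with DESeq2 (adjusted p = 0.00925); 32.8% of its exon bases are shared with VIL1, which had no counts.

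**Figure D3:**
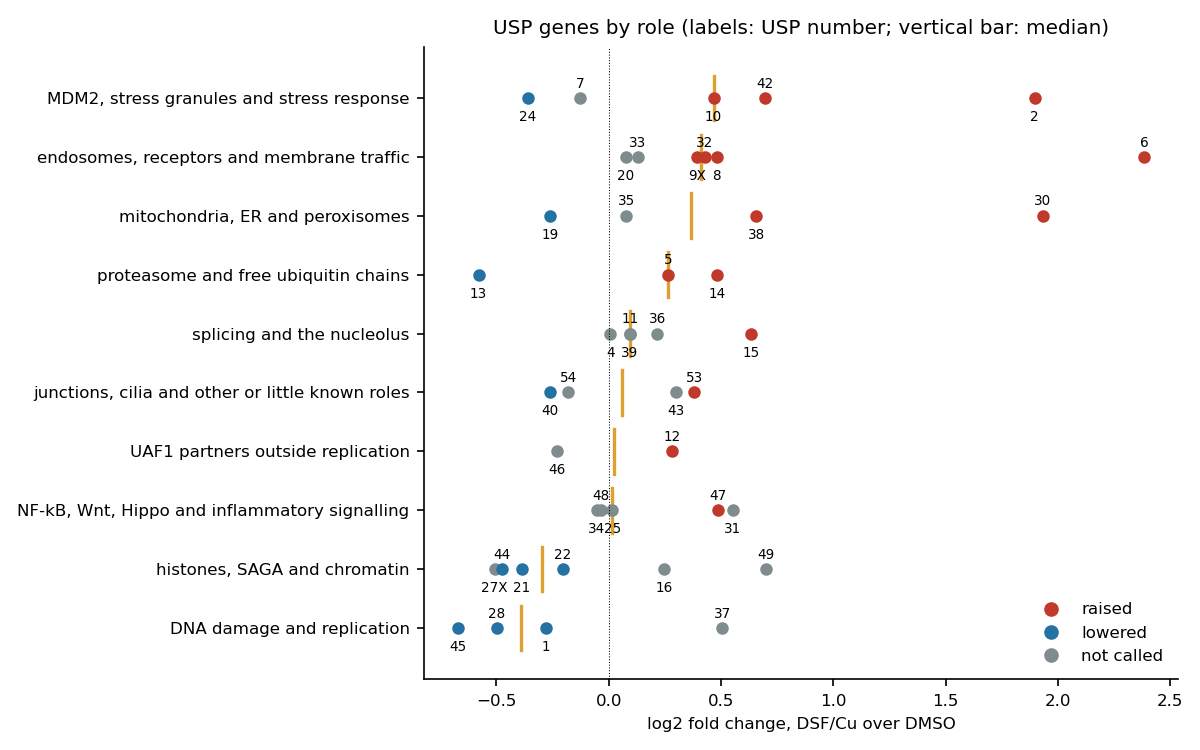
Log2 fold change (DSF/Cu over DMSO, x axis) of the tested USP genes by role group, labelled with the number in the gene's name; colour is the edgeR call and the vertical bar the median of the group. The MDM2 and stress group (median 0.47) and the endosome group (0.41) lie to the right, and the histone (−0.30) and DNA damage (−0.39) groups to the left.

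In the splicing and nucleolus group, 1 of 5 genes rose and none fell (0 lowered also at an unadjusted p under 0.05, with DESeq2 and with limma). USP15, which removes ubiquitin from splicing factors and from the SMAD proteins of TGF-beta signalling, measured 92.6, 85.7 and 92.6 CPM in DSF/Cu and 53.7, 63.2 and 57.9 CPM in DMSO. The groups did not overlap, and the rise was 0.63 ± 0.08 (adjusted p = 0.00145), kept in all 13 alternatives. Its paralogs did not pass. USP11, which also acts in homologous recombination, measured 44.8, 41.1 and 46.1 CPM in DSF/Cu and 44.0, 43.2 and 36.2 CPM in DMSO, with overlap (0.10, adjusted p = 0.497). USP4, recruited with USP15 to the spliceosome by SART3, had a log2 fold change of 0.01. USP39, a splicing protein of the tri-snRNP without protease activity, stood at 0.10, and the nucleolar USP36 at 0.22. USP11, USP4 and USP39 turned negative with total-count scaling, and USP36 passed without DSF/Cu library 2 (adjusted p = 0.0259) and with DESeq2 (adjusted p = 0.0399).

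In the NF-kB, Wnt, Hippo and inflammatory signalling group, 1 of 5 genes rose and none fell. At an unadjusted p under 0.05 and with DESeq2, 0 were lowered as well, and with limma 1 of the 4 covered. USP47, a partner of the ligase subunit beta-TrCP, measured 99.6, 108 and 119 CPM in DSF/Cu and 80.4, 80.0 and 72.3 CPM in DMSO. It rose by 0.49 ± 0.08 without overlap (adjusted p = 0.00544). USP31 had a log2 fold change of 0.55 ± 0.38 (adjusted p = 0.315); its DSF/Cu library 3 was the highest at 16.0 CPM, and 23.0% of its exon bases are shared with another gene. USP25 at 0.02, USP48 at −0.04 and USP34 at −0.05 did not pass with TMM scaling, and USP48 passed as lowered with total-count scaling (adjusted p = 0.0333).

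USP12 and USP46, bind UAF1 as USP1 does and are paralogs. USP12 rose by 0.28 ± 0.05 (adjusted p = 0.00504) and did not pass with total-count scaling (adjusted p = 0.204). USP46 did not pass at −0.23 (adjusted p = 0.104) but was called lower with total-count scaling (adjusted p = 0.0191). Of the genes with junctional or little known roles, USP53, a protein of tight junctions, rose by 0.38 ± 0.11 (adjusted p = 0.0398). That call was lost in 9 of 13 alternatives, with adjusted p up to 0.256, including those without DSF/Cu library 2 or 3 or DMSO library 2 or 3. USP40 fell by 0.26 (SE 0.06, log2; adjusted p = 0.013) and passed in all 13 alternatives. USP43 at 0.30 and USP54 at −0.18, the paralog of USP53, did not pass, although USP54 was called lower with total-count scaling (adjusted p = 0.0162).

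The other 5 members were too scarce to test. USP26 had 8 counts in DSF/Cu library 3 and 0 in every other library, and USP29 and USP50 had 0 counts throughout. USP41 had 0, 10 and 0 counts in DSF/Cu and 0, 0 and 7 in DMSO. USP51 had 0, 7 and 4 counts in DSF/Cu and 12, 0 and 0 in DMSO. A count of 0 allows up to 3 counts in a library, so these genes were near or below what the depth could show.

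Ratios between paralogs were compared because they do not change with library scaling. Of 20 pairs listed, 15 had both genes tested, and in 11 of them the 3 DSF/Cu ratios lay wholly above or below the 3 DMSO ratios. Single genes did so in 51.2% of all genes tested and no such share is known for pairs, so nothing is read from this count. An exact two-sided permutation test of 3 against 3 libraries cannot go below p = 0.1, and the adjusted p over 15 pairs was 0.136 for these 11. The ratio of USP5 to USP13 was 1.66, 1.47 and 1.32 on the log2 scale in DSF/Cu, against 0.68, 0.59 and 0.64 in DMSO, a difference of 0.84. The ratio of USP25 to USP28 was 0.75, 0.76 and 0.70 in DSF/Cu and 0.34, 0.14 and 0.19 in DMSO, a difference of 0.51. In both pairs the shift was several times the spread within groups.

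The ratio of USP12 to USP46 shifted by 0.52, that of USP16 to USP45 by 0.94 and that of USP53 to USP54 by 0.56. USP15 was higher relative to both of its paralogs in every DSF/Cu library: the log2 ratio of USP4 to USP15 shifted by −0.63 and that of USP11 to USP15 by −0.54, while USP4 against USP11 shifted by −0.09 with overlap. USP35 against USP38 shifted by −0.60. The largest shifts, 2.30 for USP2 over USP21 and 1.92 for USP6 over USP32, rest on the scarce first gene of each pair. USP44 against USP49 shifted by −1.26, and by −0.76 without DMSO library 3, in which USP49 was low. USP20 against USP33, USP31 against USP43 and USP22 against USP27X overlapped between groups.

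**Figure D4:**
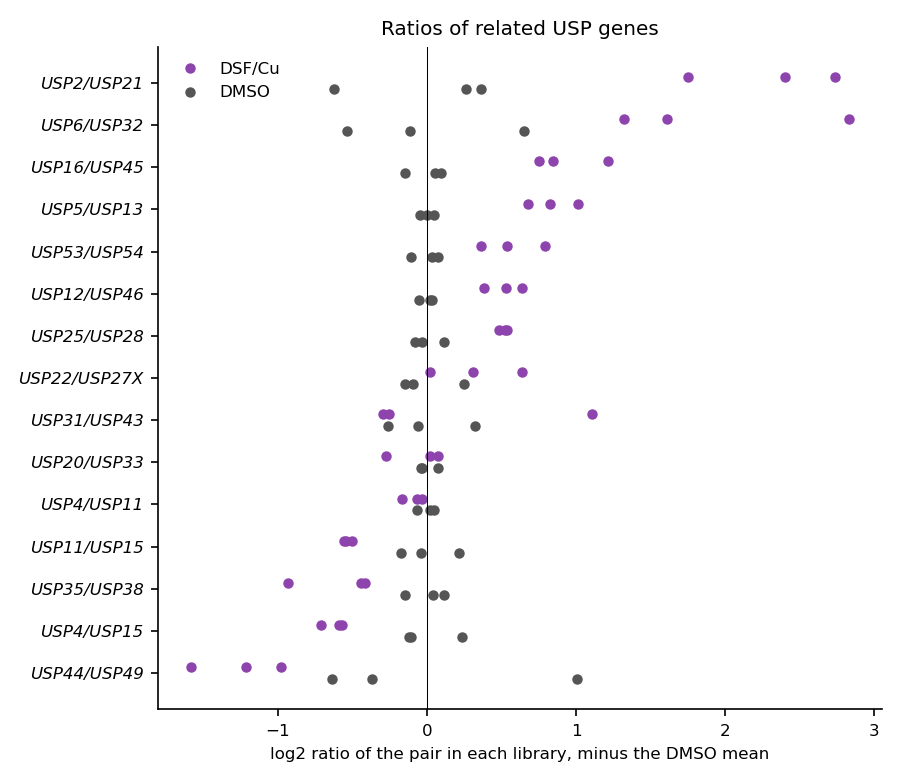
Log2 ratio of each USP paralog pair in each library (x axis, minus the DMSO mean of the pair), with DSF/Cu points above DMSO points on each line. In 11 of 15 pairs the groups do not overlap, among them USP5/USP13 (shift 0.84) and USP25/USP28 (0.51).

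Genes known to work with USPs, or listed beside them, were counted in the same fit, in which 18.5% of all genes rose and 16.8% fell. All 3 proteasome subunits that dock USP14 or the deubiquitinase UCHL5 rose: PSMD2 by 0.72 ± 0.04 (adjusted p = 0.000123), PSMD1 by 0.72 ± 0.05 (adjusted p = 0.000184) and ADRM1 by 0.59 ± 0.07 (adjusted p = 0.00127). USP14 itself rose by less, at 0.48. The endosomal partners of USP8 rose in 2 of 3 cases. STAM measured 155 ± 6.67 CPM in DSF/Cu and 78.9 ± 1.04 CPM in DMSO (SD, n = 3 each; log2 0.98 ± 0.06, adjusted p = 9.69e-05), and STAM2 rose by 0.79 ± 0.07 (adjusted p = 0.000393). HGS, the third subunit of that sorting complex, did not pass at −0.03.

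Around USP1, the cofactor WDR48 rose by 0.36 ± 0.07 (adjusted p = 0.0102; lost with total-count scaling, adjusted p = 0.14), while the substrates PCNA and FANCD2 fell by 0.44 and 0.41 on the log2 scale (adjusted p = 0.00182 and 0.0129). WDR20 and FANCI did not pass. Of 6 genes listed for the SAGA deubiquitinase module, 5 were tested, and the other had no single match in the deposited table. Of the 5, 2 rose and none fell (1 lowered at an unadjusted p under 0.05 and with DESeq2, 2 of 4 covered with limma). The rises were ENY2 by 0.23 (adjusted p = 0.0377) and ATXN7L2 by 0.68 (adjusted p = 0.0467). With total-count scaling none of the 5 rose and 2 fell, and both calls were also lost in most fits without 1 library: ENY2 held without DSF/Cu library 1 and ATXN7L2 without DSF/Cu library 2 (adjusted p up to 0.667 and 0.124 over all alternatives). None of the 3 stress granule genes listed beside USP10 (G3BP1, G3BP2 and CAPRIN1) passed in edgeR. At an unadjusted p under 0.05, 1 of these 3 was lower, CAPRIN1, with a log2 fold change of −0.14, and it passed with DESeq2 (adjusted p = 0.00743). With limma 1 of the 3 was lower.

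Of 4 partners of USP7, GMPS, an enzyme of purine synthesis that binds it, fell by 0.33 (SE 0.06, log2; adjusted p = 0.00595), and MDM2, MDM4 and DAXX did not pass. The 5 splicing partners of USP39, USP4 and USP15 gave 2 rises and no fall, but 1 rise and 3 falls with total-count scaling. SART3 rose by 0.57 ± 0.11 (adjusted p = 0.00833). PRPF3 rose by 0.26 ± 0.06 (adjusted p = 0.0203), a call lost in 7 of 13 alternatives, among them leaving out DSF/Cu library 2 or 3 or DMSO library 1 or 3 (adjusted p up to 0.462 over all).

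The USP family was set beside genes of the other deubiquitinase families. These lists go by family, so not every gene in them is a deubiquitinase (USPL1 and PAN2 below are examples). Outside the name rule, 17 of 38 tested genes of these families rose and 4 fell. Of all genes tested, 18.5% rose and 16.8% fell. The median log2 fold change of the 38 was 0.20. With total-count scaling 12 rose and 6 fell, with a median of 0.02. Of 3 tested genes with a USP fold but another name, 2 rose. CYLD, a tumour suppressor that cleaves ubiquitin chains in NF-kB signalling, rose by 1.48 ± 0.09 (adjusted p = 0.000143), and USPL1, a SUMO protease, by 1.05 ± 0.07 (adjusted p = 0.000172). PAN2, a subunit of a deadenylase, did not pass at −0.30 (adjusted p = 0.153), and was called lower with total-count scaling. In the OTU family, 9 of 13 tested genes rose and none fell, beside 18.5% and 16.8% of all genes tested. The median was 0.58, or 0.40 with total-count scaling (7 raised). DESeq2, and an unadjusted p under 0.05, also gave 9 raised and 0 lowered, and limma 7 and 0. Its leading members were VCPIP1, a cofactor of the p97 segregase, at 1.28 ± 0.08 (adjusted p = 0.00014), OTUD1 at 2.07 ± 0.14 (adjusted p = 0.000161) and YOD1, another partner of p97, at 1.07 ± 0.07 (adjusted p = 0.000165).

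Of 11 genes listed with the JAMM metalloproteases, not all of them proteases, 4 rose and 3 fell. With total-count scaling 3 rose and 4 fell. EIF3F rose by 0.84, EIF3H by 0.77 and PSMD14, the deubiquitinase of the proteasome lid, by 0.73 (adjusted p = 0.000431, 0.00107 and 0.000369). Among 3 UCH enzymes UCHL5 fell by 0.32 (log2; adjusted p = 0.0167), which did not pass without DSF/Cu library 2 or DMSO library 2 or 3 (adjusted p up to 0.0599). Of 3 Josephin enzymes, JOSD1 and ATXN3 rose by 0.24 and 0.43 (adjusted p = 0.0101 and 0.0299), and neither passed with total-count scaling; ATXN3 also did not pass without DSF/Cu library 1 or 2 or DMSO library 1 or 3 (adjusted p up to 0.139 over all alternatives). Of 5 MINDY and ZUP1 genes, 0 passed in edgeR, 0 at an unadjusted p under 0.05, 0 with DESeq2 and, of the 3 it covered, 0 with limma. Of 9 SUMO and NEDD8 proteases, SENP5 rose by 0.69 ± 0.10 (adjusted p = 0.00268) and SENP6 fell by 0.45 (log2; adjusted p = 0.0135). DESI1 fell by 0.20 (adjusted p = 0.0357), a call lost without any one of the 6 libraries (adjusted p up to 0.107). With total-count scaling these 9 genes gave 1 rise and 5 falls.

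**Figure D5:**
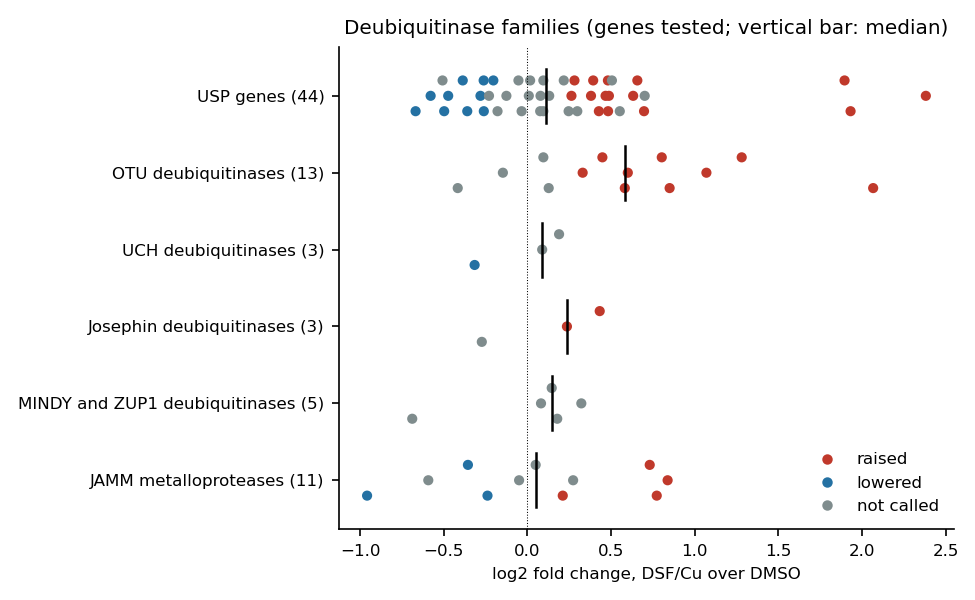
Log2 fold change (DSF/Cu over DMSO, x axis) of tested genes in 6 deubiquitinase families, with the number tested in brackets, the edgeR call as colour and the median as a vertical bar. The USP genes spread to both sides of 0 (median 0.11), while 9 of 13 OTU genes are raised (median 0.58).

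Exons of 20 of the 49 members share bases with another annotated gene in GENCODE 29, and the strand setting of the counting is not given in the sources used here, so reads from such stretches cannot be assigned to a strand. The shared part was largest, among tested members, for USP37 (32.8%), USP31 (23.0%), USP34 (18.0%) and USP2 (17.5%, with a gene that had no counts). For the other raised or lowered members described by library the part shared with any 1 gene was at most 7.40%, in USP22.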

How the data were processed

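Poly(A) RNA of 6 libraries was measured by paired-end sequencing. The deposited table holds whole-number read counts per gene and library, unscaled per the file headers. It also holds FPKM values, which the authors scaled by gene length and library size, per the file headers. The columns named Control were read as DMSO, since no other untreated group exists. The submitters' processing notes name Bowtie 0.12.2, HISAT2 2.0, StringTie 1.3.0 and a mouse build, mm8, without roles. The genes are human: all 49 members occur in GENCODE 29 (GRCh38), 27 with the same start and end. The sources used here do not give the counter or its strand setting.

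Counts were fitted over all genes with edgeR 4.0.16 in R 4.3.3 (filterByExpr, TMM, two-sided quasi-likelihood F test, Benjamini-Hochberg adjustment, calls at 0.05). SE is the size of the log2 fold change divided by the root of F. Alternatives were DESeq2 1.42.0, its size factors in edgeR, total-count scaling, no filter, limma 3.58.1 on log2(FPKM + 1) and log2(FPKM + 0.1) with a mean FPKM of at least 1, the replicate number as a block, and each library left out: 13 in all, or 11 for genes below that FPKM minimum. Promoter sequences are from RefSeq. The edgeR fit was also run on simulated counts in which few genes changed. That run does not test the choice of scaling for these data.

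The members, role groups, paralog pairs and lists were chosen with earlier results of these data known. Values per library are given for the called members without overlap that had the 8 largest rises and 8 largest falls, and for USP14, USP7, USP1, USP22, USP9X, USP8, USP10, USP30, USP28 and USP11. USP49 was added after its values were seen. Of each list, up to 3 called genes by adjusted p are named, with others that complete a list. A further gene that fits the name pattern, and some genes beside the family, are not reported here. Limits from a count of 0 cover counting error only.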

Additional observations from a re-analysis of the deposited data

How the results depend on the processing

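Of the 25 called members, 12 passed in the same direction in every alternative that gave a value (9 raised and 3 lowered), and none reversed. The raised ones were USP30, USP2, USP42, USP38, USP15, USP47, USP14, USP8 and USP32, and the lowered ones USP40, USP28 and USP13. With total-count scaling all genes gave 2356 raised and 4856 lowered, and the median of the USP genes was −0.072. Without the filter that median was 0.20. In limma on log2(FPKM + 1) and on log2(FPKM + 0.1), 8 USP genes rose in each, 1802 and 1803 of all genes rose, and the median was −0.063 and −0.076. Leaving out 1 library each gave 4 to 7 lowered USP genes (4 without DMSO library 2, 5 without DSF/Cu library 2 or 3), 11 to 14 raised ones and a median of 0.10 to 0.17. DESeq2 gave 18 raised and 11 lowered USP genes. With the replicate block there were 12 raised and 8 lowered USP genes, and 2692 and 2451 of all genes. Same-numbered libraries had deviations that correlated at 0.0214, −0.00775 and 0.0441 across genes. Libraries with different numbers gave −0.0493 to 0.03. Whether same-numbered libraries shared a culture or a batch cannot be told from these values. A p above the threshold does not show equal levels with 3 libraries a group, and members below 1 FPKM rest on few reads.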

Other observations

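The USP17L copies, single-exon deubiquitinase genes and pseudogenes in tandem repeats, lie outside the name rule. They were singled out after their values were seen. The table lists 30 of them. Counts were found for 20 in DSF/Cu libraries and for 0 in any DMSO library. Among the 20 are copies named as pseudogenes (USP17L6P, USP17L9P and USP17L14P). The share of all genes with counts in DSF/Cu alone was not worked out, so nothing is read from this count. Their summed counts were 132, 190 and 44 in the DSF/Cu libraries, against 0, 0 and 0 in the DMSO libraries, which is at least 150.3-fold higher against a limit of 3 counts over the DMSO group. USP17L2 and USP17L7 met the count minimum through the DSF/Cu libraries alone and were at least 75.6-fold and at least 32.6-fold higher by the same limit, with no test. The copies are nearly identical, so the share of each copy is uncertain, and so is the number of copies read. The sums rest on few reads of the total.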
